A study of Rattus norvegicus with 6 samples.

Results

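The collagen gene family of rat pancreas was taken as every row of the deposited gene table whose gene name reads Col, a number, a, and a number. That gave 42 of 34001 genes, of which 10 encode chains of fibrillar collagens (types I, II, III, V, XI, XXIV and XXVII), 8 encode chains of basement membrane collagens (types IV, XV and XVIII) and 24 encode chains of other types. RNA had been sequenced from 6 Sprague-Dawley rats of an outbred laboratory stock, 1 library per rat, with 2 rats in each of 3 groups, all with the abdomen opened under anaesthesia and the gland sampled at 24 h. In TP+hucMSC-Exs rats the gland was crushed by an impactor at 3 cm2 and 10 kg, a model of traumatic pancreatitis (TP), and exosomes (vesicles secreted by cells) of human umbilical cord mesenchymal stem cells were given by tail vein, 10 μg for each 100 g that the rat weighed. TP rats had the same crush and 1 ml of saline. Control rats had the gland turned over with swabs, without the crush, and 1 ml of saline. The sources used here give neither the age nor the sex of the rats. The 3 comparisons ask what the crush did to collagen transcripts within a day, how injured glands with and without exosomes differed, and how far exosome-treated glands lay from uninjured ones.

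Collagens are the main structural proteins of the extracellular matrix. Their chains are hydroxylated and wound into helices in the endoplasmic reticulum, secreted, trimmed of propeptides and cross-linked outside the cell. Fibrillar types I, III and V build the tensile fibres that accumulate when a damaged pancreas scars, and activated stellate cells and fibroblasts are their best known source there. Type IV forms the sheet under acini, ducts and vessels, and types XV and XVIII tie that sheet to the surrounding matrix. Type VI forms beaded filaments around cells, and types XII, XIV and XVI sit on the surface of fibrils. Values are TPM, transcript counts scaled by transcript length and to the same total in every library, so levels can be compared between genes, but the depth of each library is unknown.

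The genes of type IV chains lie head to head in pairs, so each pair shares its upstream DNA. The shared sequences are shown because the levels of both members of a pair are set beside each other below. In RefSeq's rat genome GRCr8, the annotated starts of Col4a1 and Col4a2 are 76 bases apart at chr16:84885521-84885596, those of Col4a3 and Col4a4 are 412 bases apart, and those of Col4a5 and Col4a6 are 1414 bases apart. For the first pair all the bases between the starts are given, read towards Col4a1 on the plus strand. For the second pair the 250 bases before each start are given, at chr9:91323740-91323989 on the plus strand for Col4a3 and at chr9:91323578-91323827 on the minus strand for Col4a4. These 2 windows overlap by 88 bases, and capitals mark a GC box.
Col4a1-Col4a2: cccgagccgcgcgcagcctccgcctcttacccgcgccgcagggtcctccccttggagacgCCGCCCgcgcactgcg
Col4a3: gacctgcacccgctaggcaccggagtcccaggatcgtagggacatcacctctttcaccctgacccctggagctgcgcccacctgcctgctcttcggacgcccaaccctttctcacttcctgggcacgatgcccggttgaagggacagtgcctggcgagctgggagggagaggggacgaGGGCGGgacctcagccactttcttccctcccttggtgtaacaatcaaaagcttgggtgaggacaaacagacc
Col4a4: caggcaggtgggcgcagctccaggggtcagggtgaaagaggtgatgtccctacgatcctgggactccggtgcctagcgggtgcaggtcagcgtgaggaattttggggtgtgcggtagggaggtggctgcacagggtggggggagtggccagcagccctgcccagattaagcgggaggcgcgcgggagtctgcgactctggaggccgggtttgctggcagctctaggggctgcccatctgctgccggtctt
Of the 42 genes, 33 had a RefSeq promoter entry. A GC box, searched as GGGCGG or CCGCCC and so on both strands, was in the 250 bases before the start of 19 of the 33, against 30.5% of all 33469 promoters in the table. A CCAAT box (CCAAT or ATTGG) was in 10 of the 33, against 34.0% of all promoters, and a TATA box (TATAAA or TTTATA) in 3, against 12.9%. A letter match is a description of the window and not a site of binding.

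Before the levels are described, 1 library needs mention. TP replicate 2 stood apart from the other 5 libraries. Digestive enzyme transcripts of 26 matched genes took 21.2% of its TPM, beside 66.0% and 60.2% in TP+hucMSC-Exs libraries, 79.1% in TP replicate 1, and 85.4% and 81.7% in Control libraries. It held 13629 genes at 1 TPM or more, where the others held 5533 to 10537. Its median tested gene lay 3.00 log2 units above the Control mean, against 0.97 and 1.22 in exosome-treated libraries and 0.00 in TP replicate 1. TP replicate 2 was the highest library for 33 of the 40 collagen genes detected in any library, where 82.1% of all detected genes were highest there. The main differences of the TP group are therefore also given without it. In these whole-tissue libraries, more cells of a type and more RNA per cell cannot be told apart.

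The collagen genes together made up a small part of the RNA. They summed to 306 and 312 TPM in TP+hucMSC-Exs libraries, 126 and 6856 TPM in TP libraries, and 53.9 and 109 TPM in Control libraries. As a share of all transcripts this was 0.0306% and 0.0312% in TP+hucMSC-Exs libraries, 0.0126% and 0.686% in TP libraries, and 0.00539% and 0.0109% in Control libraries. With the digestive enzymes left out of the total, the shares were 0.0899% and 0.0786%, 0.0606% and 0.870%, and 0.0369% and 0.0594% for the same 3 groups. Both TP+hucMSC-Exs libraries stood above both Control libraries and above TP replicate 1 on each scale, and TP replicate 2 stood far above them all.

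Col3a1 (ENSRNOG00000003357), the sole chain of type III collagen, was the most abundant member in every library. It stood at 73.9 and 63.0 TPM in TP+hucMSC-Exs libraries, 41.1 and 2233 TPM in TP libraries, and 15.2 and 35.0 TPM in Control libraries. Col1a1 (ENSRNOG00000003897), the major chain of type I collagen, came next among the fibrillar chains, at 51.9 and 56.5 TPM in TP+hucMSC-Exs libraries, 20.4 and 1593 TPM in TP libraries, and 6.61 and 15.2 TPM in Control libraries. For both genes the 4 libraries of injured glands lay above the 2 Control libraries, and the TP+hucMSC-Exs libraries lay between the TP libraries. Col1a2, the partner chain of type I collagen, is not a member by name, because the table holds it as 2 rows with the placeholder name NEWGENE_621351 that are described as this chain. Those rows summed to 39.4 and 41.6 TPM in TP+hucMSC-Exs libraries, 15.5 and 975 TPM in TP libraries, and 6.02 and 12.4 TPM in Control libraries. The partner chain was ordered across the libraries like Col1a1.

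The type V chains, which set fibril diameter, were an order lower. Col5a1 (ENSRNOG00000008749) was at 5.85 and 7.32 TPM in TP+hucMSC-Exs libraries, 1.87 and 119 TPM in TP libraries, and 0.93 and 1.84 TPM in Control libraries. Col5a2 was at 4.04 and 4.66 TPM in TP+hucMSC-Exs libraries, 1.90 and 95.9 TPM in TP libraries, and 0.83 and 2.11 TPM in Control libraries. Col5a3 was at 2.41 and 3.71 TPM in TP+hucMSC-Exs libraries, 0.83 and 103 TPM in TP libraries, and 0.28 and 0.50 TPM in Control libraries. For all 3 chains both TP+hucMSC-Exs libraries were above both Control libraries, while TP replicate 1 was just above both Control libraries for Col5a1 and within their range for Col5a2. Col27a1, a fibrillar chain best known from cartilage, reached 0.38 and 0.35 TPM in TP+hucMSC-Exs libraries, 0.13 and 3.22 TPM in TP libraries, and 0.06 and 0.15 TPM in Control libraries. The remaining fibrillar chains were at or near 0, with Col2a1 listed at 0 in all 6 libraries and Col11a1, Col11a2 and Col24a1 at 0 to 0.27 TPM.

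**Figure D1:**
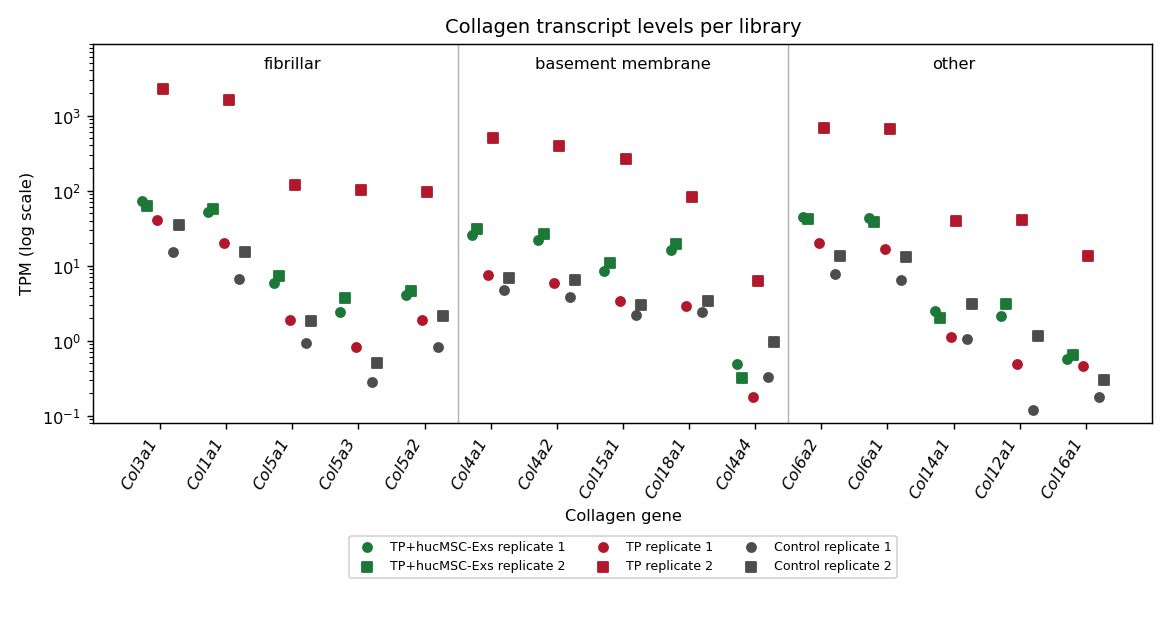
TPM on a log scale (vertical axis) of the 15 collagen genes with a mean of at least 1 TPM, 1 point per library, ordered within each class by mean level; circles are replicate 1 and squares replicate 2. TP replicate 2 (red squares) lies highest for every gene shown, at 2233 TPM for Col3a1, and both TP+hucMSC-Exs libraries lie between the TP libraries for each of the 15. Col4a4 and Col16a1 reach the mean of 1 TPM only through TP replicate 2.

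Among basement membrane chains, Col4a1 (ENSRNOG00000016281) and Col4a2 (ENSRNOG00000023972) form the common type IV network. Col4a1 was at 25.4 and 31.3 TPM in TP+hucMSC-Exs libraries, 7.42 and 502 TPM in TP libraries, and 4.72 and 6.79 TPM in Control libraries. Col4a2 was at 21.8 and 26.2 TPM in TP+hucMSC-Exs libraries, 5.90 and 400 TPM in TP libraries, and 3.83 and 6.37 TPM in Control libraries. TP replicate 1 was thus close to the Control libraries for both chains, and both TP+hucMSC-Exs libraries stood well above it. Col18a1 (ENSRNOG00000001229), whose cleaved end is endostatin, was at 16.1 and 19.8 TPM in TP+hucMSC-Exs libraries, 2.89 and 81.2 TPM in TP libraries, and 2.39 and 3.43 TPM in Control libraries. Here TP replicate 1 lay between the Control libraries, and TP replicate 2 exceeded it by less than for Col4a1. Col15a1 (ENSRNOG00000060381), a close relative of Col18a1, was at 8.57 and 11.0 TPM in TP+hucMSC-Exs libraries, 3.42 and 268 TPM in TP libraries, and 2.24 and 2.96 TPM in Control libraries. Both relatives were higher in TP+hucMSC-Exs than in Control libraries, but TP replicate 2 held more Col15a1 than Col18a1.

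The type IV chains of specialised basement membranes behaved differently from Col4a1 and Col4a2. Col4a4 was at 0.49 and 0.32 TPM in TP+hucMSC-Exs libraries, 0.18 and 6.34 TPM in TP libraries, and 0.33 and 0.96 TPM in Control libraries. Its head-to-head neighbour Col4a3 was at 0.04 and 0.04 TPM in TP+hucMSC-Exs libraries, 0.01 and 0.57 TPM in TP libraries, and 0.03 and 0.11 TPM in Control libraries. Neither was higher in TP+hucMSC-Exs libraries than in both Control libraries. Col4a5 varied less in proportion than Col4a1 or Col4a2, with 0.68 and 0.64 TPM in TP+hucMSC-Exs libraries, 0.41 and 1.39 TPM in TP libraries, and 0.44 and 0.72 TPM in Control libraries. Col4a6, its neighbour, was at 0.10 TPM or less everywhere.

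Of the other types, the type VI chains were the most abundant. Col6a2 (ENSRNOG00000001254) was at 44.3 and 41.5 TPM in TP+hucMSC-Exs libraries, 19.8 and 674 TPM in TP libraries, and 7.88 and 13.4 TPM in Control libraries. Col6a1 (ENSRNOG00000001249) was at 42.6 and 38.2 TPM in TP+hucMSC-Exs libraries, 16.8 and 660 TPM in TP libraries, and 6.44 and 13.0 TPM in Control libraries. All 4 injured glands were above both Control glands for these 2 chains. The remaining chain of the trimer, the long Col6a3, is in the table under the placeholder name AABR07068316.1 and so outside the rule. It was at 6.13 and 7.14 TPM in TP+hucMSC-Exs libraries, 1.26 and 140 TPM in TP libraries, and 0.49 and 1.84 TPM in Control libraries, where TP replicate 1 lay within the Control range.

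The fibril-surface chains did not share 1 pattern. Col14a1 (ENSRNOG00000026415), a chain found on the surface of type I fibrils, was at 2.52 and 2.01 TPM in TP+hucMSC-Exs libraries, 1.11 and 39.7 TPM in TP libraries, and 1.07 and 3.11 TPM in Control libraries. Of the 5 genes of the other types with a mean of at least 1 TPM, it alone had both TP+hucMSC-Exs values within the Control range. Col12a1, the type XII chain of tendon and stressed tissue, was at 2.14 and 3.10 TPM in TP+hucMSC-Exs libraries, 0.49 and 41.0 TPM in TP libraries, and 0.12 and 1.15 TPM in Control libraries. Col16a1, the type XVI chain, was at 0.57 and 0.65 TPM in TP+hucMSC-Exs libraries, 0.46 and 13.6 TPM in TP libraries, and 0.18 and 0.30 TPM in Control libraries. Col7a1, whose product anchors epithelium to the matrix below it, was at 0.25 and 0.33 TPM in TP+hucMSC-Exs libraries, 0.05 and 5.04 TPM in TP libraries, and 0.02 and 0.08 TPM in Control libraries. Col8a1, a short chain made by vessel walls, followed the same order, at 0.23 and 0.39 TPM, 0.07 and 4.97 TPM, and 0.03 and 0.08 TPM for TP+hucMSC-Exs, TP and Control libraries.

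The remaining members were scarce. In all, 27 of the 42 genes had a mean under 1 TPM and were left out of the main fit. They held at most 5.04 TPM in any library and at most 0.72 TPM outside TP replicate 2. Of these, Col7a1 and Col8a1 entered the fit without TP replicate 1 that is described below. Col2a1 and Col19a1 were listed at 0 throughout. Only Col9a1 and Col9a3, of the 40 members detected in any library, had both TP+hucMSC-Exs libraries above both TP libraries. This order was shown by 6.07% of all detected genes. Col9a1, a chain of cartilage type IX collagen, was at 0.21 and 0.25 TPM in TP+hucMSC-Exs libraries, 0.04 and 0 TPM in TP libraries, and 0.01 and 0.01 TPM in Control libraries. Col9a3 was at 0.13 and 0.10 TPM in TP+hucMSC-Exs libraries, 0.06 and 0.03 TPM in TP libraries, and 0.04 and 0.18 TPM in Control libraries. The reverse order, shown by 2.78% of detected genes, was seen for Col11a1 and Col11a2. Col11a1 was at 0.04 and 0.01 TPM in TP+hucMSC-Exs libraries, 0.06 and 0.05 TPM in TP libraries, and 0.02 and 0.05 TPM in Control libraries. Col11a2 was listed at 0 in both TP+hucMSC-Exs libraries, at 0.03 and 0.14 TPM in TP libraries, and at 0 and 0.06 TPM in Control libraries. TPM keep no counts, so the counting error of these low levels is unknown, and they were not tested in the main fit.

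Summed by class over all members, fibrillar chains held 139 and 136 TPM in TP+hucMSC-Exs libraries (137 ± 2.15, SD, n = 2), 66.3 and 4147 TPM in TP libraries (2107 ± 2886), and 23.9 and 54.9 TPM in Control libraries (39.4 ± 21.9). Basement membrane chains held 73.1 and 89.3 TPM in TP+hucMSC-Exs libraries, 20.2 and 1259 TPM in TP libraries, and 14.0 and 21.3 TPM in Control libraries. The other types held 94.1 and 87.6 TPM in TP+hucMSC-Exs libraries, 39.9 and 1450 TPM in TP libraries, and 16.0 and 32.4 TPM in Control libraries. TP replicate 1 was above both Control libraries for fibrillar and other chains and between them for basement membrane chains.

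The TP+hucMSC-Exs sums exceeded the Control sums by 1.92 log2 units for fibrillar, 2.23 for basement membrane and 1.99 for other chains, each with p = 0.333 in a two-sided exact permutation test. With 2 libraries against 2 this is the smallest p the test can give, and 0.538 after Benjamini-Hochberg adjustment over the 21 exact tests made on class sums and ratios. The TP sums exceeded the Control sums by 3.86, 3.21 and 3.40 log2 units, with exact p = 0.333, 0.667 and 0.333 (adjusted 0.538, 0.875 and 0.538). Without TP replicate 2 these differences were 0.87, 0.23 and 0.81, and without TP replicate 1 they were 6.84, 6.19 and 5.99. Against TP, the TP+hucMSC-Exs sums differed by -1.94, -0.98 and -1.41 log2 units, with exact p = 1 for each. Without TP replicate 2 the same 3 differences became 1.05, 2.00 and 1.19, so that their sign was set by that library. Adding the placeholder rows of Col1a2 and Col6a3 to the sums, chosen after seeing the data, changed no direction.

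**Figure D2:**
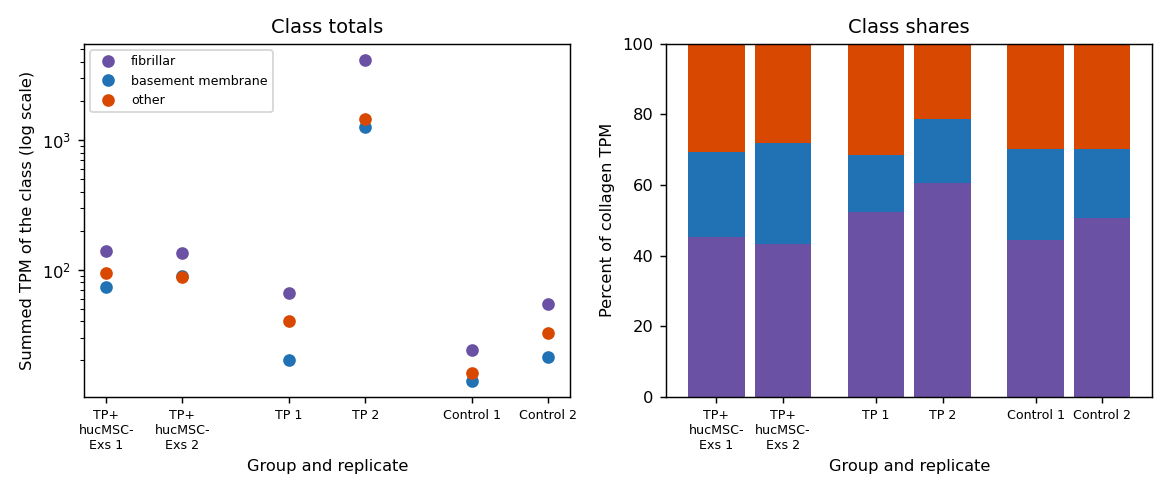
Summed TPM of each collagen class on a log scale (left) and the share of each class in collagen TPM (right) for every library, in the order TP+hucMSC-Exs, TP and Control. The fibrillar share is 52.4% and 60.5% in TP libraries and 43.4% to 50.5% in the other 4.

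Ratios within a library do not depend on how that library was scaled. Fibrillar over basement membrane TPM was 1.89 and 1.52 in TP+hucMSC-Exs libraries (1.71 ± 0.267, SD, n = 2), 3.28 and 3.29 in TP libraries (3.29 ± 0.0131), and 1.71 and 2.57 in Control libraries (2.14 ± 0.610). On this ratio both TP libraries, so far apart in level, were alike and stood above the other 4. Exosome-treated glands differed from TP glands by -0.95 log2 units and TP from Control glands by 0.65, each with exact permutation p = 0.333 (adjusted 0.538), and exosome-treated from Control glands by -0.31 with exact p = 0.667 (adjusted 0.875). Leaving out 1 Control library, replicate 1 or 2, gave 0.35 or 0.94 for TP against Control and -0.60 or -0.01 for exosome-treated against Control glands. Without TP replicate 2 the difference from TP was about as large, since TP replicate 1 alone had the ratio 3.28. The share of collagen TPM in fibrillar chains was 45.3% and 43.4% in TP+hucMSC-Exs libraries, 52.4% and 60.5% in TP libraries, and 44.3% and 50.5% in Control libraries.

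Type III over type I, measured as Col3a1 over Col1a1, was at 1.42 and 1.11 in TP+hucMSC-Exs libraries, 2.02 and 1.40 in TP libraries, and 2.30 and 2.30 in Control libraries. All 4 injured glands were below both Control glands. The differences were -0.87 log2 units for TP+hucMSC-Exs against Control and -0.45 for TP against Control (exact permutation p = 0.333 and adjusted 0.538 for each), and -0.42 between exosome-treated and TP glands (exact p = 0.667, adjusted 0.875). Without TP replicate 2 the difference from Control was -0.19 and that between exosome-treated and TP glands -0.68, and without TP replicate 1 they were -0.71 and -0.15. Ratios of partner chains differed in how far they ranged. Col4a1 over Col4a2 was 1.17 and 1.20 in TP+hucMSC-Exs libraries, 1.26 and 1.26 in TP libraries, and 1.23 and 1.07 in Control libraries, so that the highest ratio was 1.18 times the lowest. Its differences were 0.13 log2 units for TP against Control and -0.09 for exosome-treated against TP glands (exact permutation p = 0.333 and adjusted 0.538 for each), and 0.04 for TP+hucMSC-Exs against Control (exact p = 1), and leaving out 1 library gave 0.03 to 0.24 for TP against Control. Col6a1 over Col6a2 spanned 1.20 times, and Col1a1 over Col1a2 spanned 1.49 times, at 1.32 and 1.36 in TP+hucMSC-Exs libraries, 1.31 and 1.63 in TP libraries, and 1.10 and 1.23 in Control libraries. For Col1a1 over Col1a2 the difference was 0.20 log2 units for TP+hucMSC-Exs against Control and 0.33 for TP against Control (exact permutation p = 0.333 and adjusted 0.538 for each), and -0.13 for exosome-treated against TP glands (exact p = 1). Leaving out 1 library gave 0.12 to 0.29 and 0.18 to 0.49 for the first 2 of these. Other partner chains ranged more widely, by 1.80 times for Col5a1 over Col5a2, 2.82 times for Col6a3 over Col6a1 and 3.19 times for Col5a3 over Col5a1, beside 2.07 times for Col3a1 over Col1a1.

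A few further ratios, picked after the values were seen and so given without a test, moved more. Col14a1 over Col1a1 was 0.0485 and 0.0356 in TP+hucMSC-Exs libraries, 0.0545 and 0.0249 in TP libraries, and 0.162 and 0.205 in Control libraries. Col4a4 over Col4a1 was 0.0193 and 0.0102 in TP+hucMSC-Exs libraries, 0.0243 and 0.0126 in TP libraries, and 0.0699 and 0.141 in Control libraries. In both cases the 4 injured glands lay below both Control glands without overlap. Col4a4 was at 0.18 to 0.96 TPM outside TP replicate 2, with 0.33 and 0.96 TPM in Control libraries. The counting error of its ratio is unknown at such levels. Col18a1 over Col4a1 was 0.631 and 0.631 in TP+hucMSC-Exs libraries, 0.389 and 0.162 in TP libraries, and 0.506 and 0.505 in Control libraries, so the 3 groups did not overlap.

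**Figure D3:**
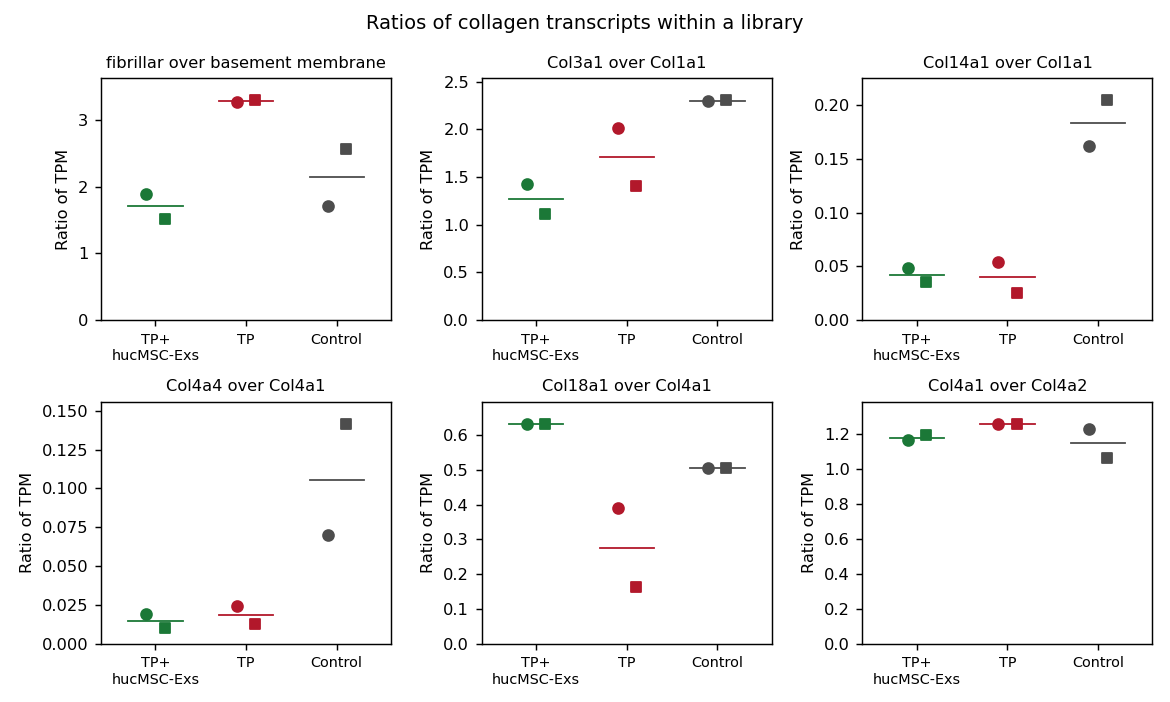
Ratios of TPM within each library (vertical axes, from 0), 1 point per library with a bar at the group mean; circles are replicate 1 and squares replicate 2. Fibrillar over basement membrane TPM is 3.28 and 3.29 in TP libraries and at most 2.57 elsewhere, and Col14a1 over Col1a1 is at most 0.0545 in injured glands and at least 0.162 in Control glands.

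Tested gene by gene, no collagen passed the threshold. Of the 42 members, 15 had a mean of at least 1 TPM over the 6 libraries and entered limma's test of log2(TPM + 0.5), 5 in each class. Col4a4 and Col16a1 were among them through TP replicate 2 alone. Benjamini-Hochberg adjusted p was under 0.05 for 0 of 15 in TP against Control, where 0.0523% of the 11477 tested genes were called higher and 0% lower. Between exosome-treated and TP glands it was again 0 of 15, with 0.0523% of tested genes called higher and 0.0174% lower. For TP+hucMSC-Exs against Control it was 0 of 15, with 0.209% of tested genes called higher and 0% lower. At an unadjusted p under 0.05 the limma counts were 10 of 15 for TP against Control, beside 4.06% of tested genes, and 0 of 15 for exosome-treated glands against TP (1.32% of tested genes) and against Control (2.95%). The first of these counts leans on TP replicate 2. With that library left out, the largest TP against Control difference of a tested collagen was 0.98 log2 units, for Col1a1.

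The largest TP against Control differences on the log2(TPM + 0.5) scale, which understates the change of low genes, were 4.11 ± 1.33 (SE) for Col1a1 and 3.73 ± 1.42 for Col5a3, with limma adjusted p = 0.555 for both. The smallest was 0.97 ± 1.54 for Col4a4. The median over the 15 was 3.21, beside 1.50 over all tested genes. Without TP replicate 2 the differences were 0.98 for Col1a1 and 0.59 for Col5a3, with a median of 0.37 over the 13 collagens then tested. Without TP replicate 1 the differences were 7.24 for Col1a1 and 6.87 for Col5a3. Each of these fits held 1 TP rat, so the spread among TP rats did not enter. Against TP, the TP+hucMSC-Exs libraries differed by -2.15 ± 1.28 for Col3a1 and -1.75 ± 1.42 for Col5a3, by 0.14 ± 1.42 for Col18a1, and by a median of -1.43 over the 15, beside -0.38 over all tested genes (limma adjusted p = 1 for each of the 15). Against Control, the TP+hucMSC-Exs libraries differed by 2.44 ± 1.42 for Col18a1, 2.37 ± 1.33 for Col1a1 and 2.22 ± 1.39 for Col4a1 at the upper end, and by 0.21 ± 1.42 for Col14a1 and -0.29 ± 1.54 for Col4a4 at the lower end. The median was 1.95, beside 1.09 over all tested genes, and the lowest limma adjusted p was 0.800. The comparisons share libraries, so their values are not independent of each other.

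How far the libraries of 2 groups were apart was also counted without a model. Both TP libraries were above both Control libraries for 9 of the 15 tested collagens, where 23.1% of tested genes were, and below them for 0 (1.09%). Of the 15, Col4a4 and Col16a1 passed the filter only through a high TP replicate 2, so the place of that library was not open for them. Col16a1 is among the 9. TP replicate 1 alone was above both Control libraries for the same number, 9 of the 15, where 25.2% of tested genes were. Both TP+hucMSC-Exs libraries were above both Control libraries for 13 of the 15, where 86.9% of tested genes were, so that count was near the background, and below them for 0 (1.63%). They were above both TP libraries for 0 of the 15 (5.09%) and below both for 0 (1.62%). They lay between the TP libraries for 15 of the 15, where 87.2% of tested genes did, and relative to the median gene of each library for 8 of the 15, where 38.1% did. Among the 40 members detected in any library, 21 were higher in both TP+hucMSC-Exs than in both Control libraries, where 65.1% of detected genes were. Of the same 40, 13 were higher in both TP than in both Control libraries, where 19% of detected genes were. Some of the 13 were scarce, such as Col20a1, at 0.17 TPM in TP replicate 1 and 0.16 TPM in Control replicate 2.

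Set against the median tested gene of each library, collagens differed among themselves. In this relative scale 9 of the 15 had both TP+hucMSC-Exs libraries above both Control libraries, where 27.6% of tested genes did, namely Col1a1, Col5a1, Col5a3, Col4a1, Col4a2, Col15a1, Col18a1, Col6a1 and Col6a2. Col4a4, Col14a1 and Col16a1 had them below, where 40.8% of tested genes did. The 0.5 TPM added before the log lowers genes near 0 in libraries whose median gene rose. Col2a1, at 0 throughout, was thus at -1.08 and -1.35 in TP+hucMSC-Exs libraries. In TPM, Col16a1 was 2.38 and 2.71 times its Control mean there, although it counted as below. For Col18a1 the relative values were 1.22 and 1.23 log2 units above the Control mean in TP+hucMSC-Exs libraries, against 0.02 and 1.51 in TP libraries. For Col1a1 they were 1.24 and 1.08 in TP+hucMSC-Exs libraries, against 1.00 and 4.14 in TP libraries. On this scale Col4a4 lay below the Control mean in all injured glands. It was at -1.23 and -1.78 in TP+hucMSC-Exs libraries and -0.68 and -0.46 in TP libraries. Outside TP replicate 2 it was at 0.96 TPM or less, so the added 0.5 TPM weighed on these values. In TPM it was 9.83 times its Control mean in TP replicate 2. TP libraries were above Control libraries for 11 of the 15 on this scale (16.6% of tested genes) and below them for 1, Col4a4 (16.8%). TP+hucMSC-Exs libraries were above both TP libraries for 0 of the 15 (17% of tested genes) and below both for 5 (25%). Col4a4 and Col16a1, which passed the filter only through TP replicate 2, are among these 5, and Col16a1 is among the 11.

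**Figure D4:**
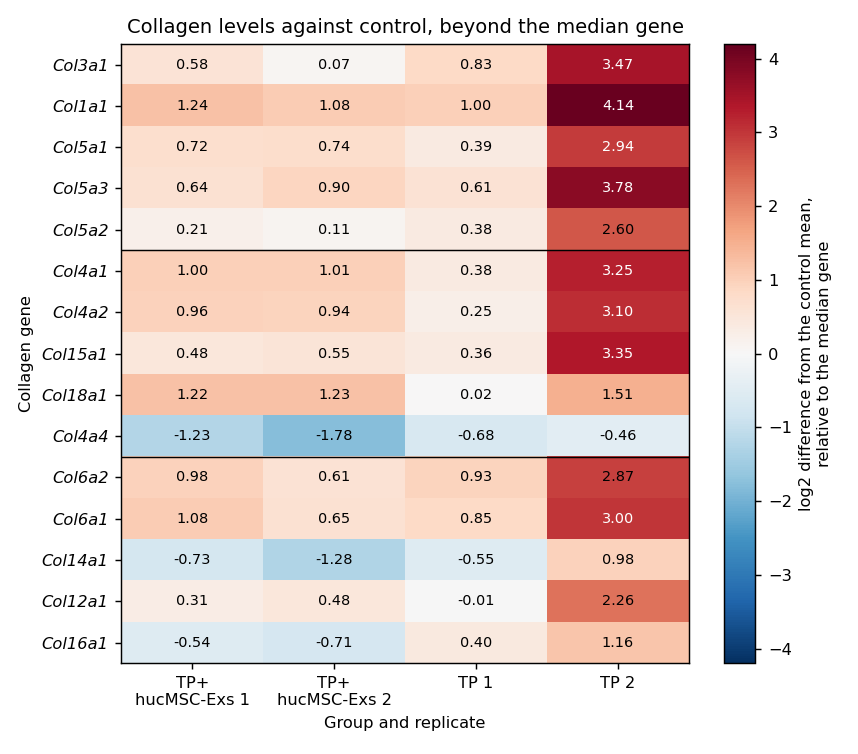
Log2 difference of each tested collagen from its Control mean after subtracting the shift of the library's median gene, for the 4 libraries of injured glands; red is above and blue below. Most cells are positive, Col4a4 is negative in all 4 libraries (-1.78 to -0.46), and the TP replicate 2 column reaches 4.14 for Col1a1. The 0.5 TPM added before the log lowers the values of genes near 0 TPM, such as Col4a4 and Col16a1.

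The calls depended on the 2 TP libraries. With TP replicate 2 left out, 13 collagens passed the filter and the lone TP library was assumed to vary like the other groups. Limma then called 0 of 13 for TP against Control (0.26% of tested genes higher), and 6 of 13 higher in exosome-treated than in TP glands (40.1% of tested genes higher). The 6 were Col18a1 (2.43 ± 0.416, adjusted p = 0.00969), Col4a2 (1.93 ± 0.425, adjusted p = 0.0187), Col4a1 (1.86 ± 0.400, adjusted p = 0.0177), Col5a1 (1.57 ± 0.472, adjusted p = 0.0350), Col1a1 (1.39 ± 0.478, adjusted p = 0.0467) and Col15a1 (1.38 ± 0.420, adjusted p = 0.0357) in limma. With TP replicate 1 left out instead, limma called 17 of 17 collagens lower in TP+hucMSC-Exs than in TP (79.7% of tested genes lower) and 17 of 17 higher in TP than in Control (91.5% of tested genes higher). Of these 17, Col4a4, Col16a1, Col7a1 and Col8a1 passed the filter only through TP replicate 2. Over the libraries other than that one their means were 0.456, 0.432, 0.146 and 0.16 TPM. For these genes the filter itself required a high TP replicate 2, so the direction of their differences was not open to test. Whether exosome-treated glands held more or less collagen RNA than injured glands was thus decided by which TP rat they were set against.

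For TP+hucMSC-Exs against Control, leaving out TP libraries could not change the estimated differences, because each group had its own mean in the fit. The fits differed in the genes that passed the filter and in how the TP libraries entered the shared variance. Some genes counted next passed the filter only through TP replicate 2 and stood at 0.65 TPM or less in the libraries compared. They were Col7a1 and Col8a1 in the fit without TP replicate 1, and Col16a1 in the fit of only the groups compared. Limma called 12 of 13 collagens higher without TP replicate 2 (68.6% of tested genes), 13 of 17 without TP replicate 1 (50.8%), and 12 of 15 when only the TP+hucMSC-Exs and Control libraries were fitted (52.3%). Without TP replicate 2, Col18a1 was at 2.44 ± 0.340 (adjusted p = 0.00175), Col1a1 at 2.37 ± 0.390 (adjusted p = 0.00306) and Col3a1 at 1.54 ± 0.389 (adjusted p = 0.0110) in limma, while Col14a1 at 0.21 ± 0.462 was not called (adjusted p = 0.678).

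Genes that make, bind or break down collagen were listed by role, with the results on these libraries known. In each of the 7 lists and 3 comparisons, 0 tested genes passed limma's threshold. At an unadjusted p under 0.05, limma counted 6 of the 83 listed genes tested for TP+hucMSC-Exs against Control (2.95% of all tested genes). It counted 1 for exosome-treated against TP glands (1.32%) and 21 for TP against Control (4.06%). All list counts and medians for TP include TP replicate 2, and none is given without it. In summed TPM that library was far above TP replicate 1 for each of the 7 lists. Some listed genes passed the filter only through it, so the direction of their TP differences was not open to test. The folding and modification list had 16 tested genes, with median log2 differences of 1.72 between exosome-treated and Control glands, -0.97 between exosome-treated and TP glands and 2.60 between TP and Control glands. All tested genes had medians of 1.09, -0.38 and 1.50 for these comparisons. Both TP libraries were above both Control libraries for 13 of the 16, where 23.1% of tested genes were. The 13 include Fkbp14 and Tmem38b, which passed the filter only through a high TP replicate 2. Serpinh1, the collagen chaperone HSP47, was at 135 and 176 TPM in TP+hucMSC-Exs libraries, 43.1 and 2311 TPM in TP libraries, and 12.8 and 22.3 TPM in Control libraries, and all 4 injured glands were above both Control glands. P4hb, the beta subunit of prolyl hydroxylase and a general disulfide isomerase of secretory cells, was far less spread, at 272 and 293 TPM in TP+hucMSC-Exs libraries, 204 and 926 TPM in TP libraries, and 174 and 200.3 TPM in Control libraries.

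Of 10 tested genes for propeptide removal and cross-linking, 4 had both TP libraries above both Control libraries, as 23.1% of all tested genes did, and 10 had both TP+hucMSC-Exs libraries above both Control libraries, an order that 86.9% of all tested genes had too. Pcolce, an enhancer of propeptide cleavage, was at 13.9 and 12.6 TPM in TP+hucMSC-Exs libraries, 8.39 and 254 TPM in TP libraries, and 2.98 and 5.02 TPM in Control libraries. Tgm2, a cross-linking transglutaminase, was at 12.3 and 19.1 TPM in TP+hucMSC-Exs libraries, 3.22 and 132 TPM in TP libraries, and 2.15 and 5.02 TPM in Control libraries. TP replicate 1 thus exceeded both Control libraries for Pcolce and fell between them for Tgm2. Of 7 tested genes for breakdown and uptake, 0 had TP libraries above Control libraries, beside 23.1% of all tested genes, and 6 had TP+hucMSC-Exs libraries above them, beside 86.9%. Mmp2, gelatinase A, was at 6.12 and 7.68 TPM in TP+hucMSC-Exs libraries, 2.75 and 110 TPM in TP libraries, and 2.11 and 3.52 TPM in Control libraries. Mmp14, the membrane-bound protease that activates it, was at 5.88 and 6.52 TPM in TP+hucMSC-Exs libraries, 1.63 and 95.6 TPM in TP libraries, and 0.97 and 2.37 TPM in Control libraries. For both proteases TP replicate 1 lay within the Control range.

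Collagen receptors (5 tested) had median log2 differences of 0.48, -1.15 and 1.46 in the same order of comparisons. Of these receptors, Ddr2, Itga1 and Itga11 stood at 0.90 TPM or less outside TP replicate 2 and passed the filter only through it. The medians were values of these genes, for which the filter itself required a high TP replicate 2. Itgb1, the shared beta chain of collagen-binding integrins, was at 38.0 and 44.9 TPM in TP+hucMSC-Exs libraries, 11.0 and 170 TPM in TP libraries, and 7.55 and 11.8 TPM in Control libraries. Ddr1, an epithelial receptor kinase for collagen, was at 19.2 and 25.0 TPM in TP+hucMSC-Exs libraries, 2.87 and 27.6 TPM in TP libraries, and 2.87 and 3.64 TPM in Control libraries. For Ddr1, unlike Itgb1, the TP+hucMSC-Exs libraries came close to TP replicate 2. Fibril-associated proteins (15 tested) had medians of 1.40, -1.55 and 2.79. Sparc, a collagen-binding glycoprotein, was at 71.7 and 81.7 TPM in TP+hucMSC-Exs libraries, 38.7 and 2097 TPM in TP libraries, and 25.2 and 50.6 TPM in Control libraries. Fn1, fibronectin, on which collagen fibrils assemble, was at 43.0 and 64.4 TPM in TP+hucMSC-Exs libraries, 4.21 and 699 TPM in TP libraries, and 0.90 and 5.13 TPM in Control libraries. TP replicate 1 was between the Control libraries for both genes, while Fn1 in TP+hucMSC-Exs libraries was 4.24 ± 1.39 log2 units above Control (limma adjusted p = 0.412).

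Basement membrane partners (13 tested) had medians of 1.26, -1.02 and 1.61, and TGF-beta pathway genes (17 tested) had medians of 1.20, -0.21 and 1.84. Pxdn, the peroxidase that cross-links type IV collagen, was at 6.15 and 7.39 TPM in TP+hucMSC-Exs libraries, 1.66 and 196 TPM in TP libraries, and 1.01 and 2.52 TPM in Control libraries. Lamc1, the common laminin gamma chain, was at 15.6 and 16.6 TPM in TP+hucMSC-Exs libraries, 5.50 and 157 TPM in TP libraries, and 3.63 and 6.94 TPM in Control libraries. TP replicate 1 was within the Control range for both. Tgfb1, the best known inducer of fibrillar collagen genes, was at 8.24 and 12.0 TPM in TP+hucMSC-Exs libraries, 1.99 and 97.9 TPM in TP libraries, and 0.60 and 4.58 TPM in Control libraries. Tgfbi, a collagen-binding protein named for its induction by TGF-beta, was at 11.9 and 22.2 TPM in TP+hucMSC-Exs libraries, 1.48 and 90.8 TPM in TP libraries, and 1.05 and 3.59 TPM in Control libraries, the same order as Tgfb1.

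Markers of several cell types that a piece of pancreas can hold were, like the collagen sums, highest in TP replicate 2, and their part in the collagen levels was not tested. The 14 fibroblast and stellate cell markers summed to 168 and 213 TPM in TP+hucMSC-Exs libraries, 67.8 and 3069 TPM in TP libraries, and 37.0 and 81.9 TPM in Control libraries. Smooth muscle and pericyte markers (12) summed to 41.7 and 42.9 TPM in TP+hucMSC-Exs libraries, 13.2 and 1006 TPM in TP libraries, and 12.8 and 38.7 TPM in Control libraries. Both lists ranked TP replicate 2 first, as the collagens did, and they share Acta2. The 11 matched endothelial markers summed to 72.6 and 87.5 TPM in TP+hucMSC-Exs libraries, 32.9 and 413 TPM in TP libraries, and 25.5 and 39.5 TPM in Control libraries. Macrophage markers (12) summed to 434 and 795 TPM in TP+hucMSC-Exs libraries, 67.5 and 4984 TPM in TP libraries, and 24.7 and 162 TPM in Control libraries, led by Lyz2.

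Fat cells express collagens as well, and 11 matched fat cell markers summed to 41.8 and 56.0 TPM in TP+hucMSC-Exs libraries, 26.0 and 7089 TPM in TP libraries, and 26.0 and 52.6 TPM in Control libraries. Adipoq, the fat cell hormone adiponectin, was at 0.45 and 0.27 TPM in TP+hucMSC-Exs libraries, 0.10 and 741 TPM in TP libraries, and 0.74 and 1.42 TPM in Control libraries. Fabp4, a fatty acid carrier that vessels also express, was at 25.9 and 33.7 TPM in TP+hucMSC-Exs libraries, 16.5 and 2399 TPM in TP libraries, and 13.9 and 29.1 TPM in Control libraries. Of the 11 markers, 2 and 4 were at 0 in TP+hucMSC-Exs libraries, 3 and 0 in TP libraries, and 0 and 1 in Control libraries. The summed fat cell markers of TP+hucMSC-Exs and Control libraries overlapped. The 7 matched mesothelium markers summed to 45.0 and 41.8 TPM in TP+hucMSC-Exs libraries, 3.79 and 145 TPM in TP libraries, and 3.95 and 9.36 TPM in Control libraries, and Krt19, which ducts also express, made up 32.4 and 35.3 TPM of the TP+hucMSC-Exs sums. Schwann cell markers (8) summed to 2.72 to 8.09 TPM and to 106 TPM in TP replicate 2, and 9 matched lymphocyte markers to 17.0 and 29.6 TPM in TP+hucMSC-Exs libraries, 2.49 and 150 TPM in TP libraries, and 1.36 and 42.3 TPM in Control libraries. Skeletal muscle and cartilage markers (9 matched) summed to 9.79 TPM at most, with the cartilage genes Acan and Matn1 at 0 in all 6 libraries.

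Acinar markers, of which 11 matched, were abundant in every library, as the tissue label says. They summed to 459929 and 424292 TPM in TP+hucMSC-Exs libraries, 524271 and 141210 TPM in TP libraries, and 573606 and 547866 TPM in Control libraries. The 12 duct and islet markers summed to 3130 and 1668 TPM in TP+hucMSC-Exs libraries, 1008 and 869 TPM in TP libraries, and 2089 and 339 TPM in Control libraries. Outside TP replicate 2 most of that sum was RNA of the insulin genes Ins1 and Ins2, with Ins2 at 1435 and 639 TPM in TP+hucMSC-Exs libraries, 504 and 149 TPM in TP libraries, and 1078 and 167 TPM in Control libraries. Spp1, which ducts and macrophages express, was at 88.8 and 150 TPM in TP+hucMSC-Exs libraries, 14.0 and 558 TPM in TP libraries, and 3.68 and 2.87 TPM in Control libraries. For Spp1, as for the collagen sum, all 4 injured glands were above both Control glands, and for Ins2 they were not.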

How the data were processed

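The values are gene-level TPM (transcript abundance scaled by length and to a fixed total per library), in a table deposited by the authors with 1 column per library. A column kit for RNA and a SMARTer mRNA kit for libraries are named in the labels' protocols. The aligner, quantifier and strand setting were not given in the sources used here. GRCm38 and mm10, both mouse builds, are named in the submitters' processing notes, although 32883 of the genes carry rat Ensembl identifiers. Every column sums to the same total, so depth is unknown. Columns of the TP group were assigned by name and replicate number.

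Genes with a mean of at least 1 TPM, 11477 in all, were fitted as log2(TPM + 0.5) with limma 3.58.1 (R 4.3.3), 1 model over the 3 groups, empirical Bayes with a variance trend and Benjamini-Hochberg adjustment over all tested genes. Only collagen and listed genes are reported. Class sums and ratios were compared by two-sided exact permutation tests (SciPy 1.17.1). The series' design text describes separate rats. Promoters came from RefSeq (GRCr8). The fits were tested on simulated data.

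Genes with values in all libraries were the 6, 5 and 6 most abundant of the 3 classes, those past the threshold or of smallest p, the 4 with the largest difference in each direction without overlap in comparisons with TP+hucMSC-Exs, and of each list the 2 most abundant. Members and lists were chosen with earlier results of these data known. Alternatives were pseudocounts of 0.1 and 1, no filter or 5 TPM, no variance trend, 4 other scalings, only the groups compared, a replicate block, each library left out, and the placeholder rows of Col1a2 and Col6a3 added to the sums.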

Additional observations from a re-analysis of the deposited data

How the results depend on the processing

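No collagen passed limma's threshold under another pseudocount, filter, scaling, variance model or replicate block. The exceptions, with 12 of 15 for TP+hucMSC-Exs against Control when only those groups were fitted, and ranges over fits that leave out 1 library of 0 to 17 (TP against Control), 0 to 17 (exosome-treated against TP) and 0 to 13 (exosome-treated against Control), all involve the TP libraries. Over all genes, limma called 6 for TP against Control, but 14 with a pseudocount of 0.1, 2 with digestive enzymes removed from the total, 10 with the replicate block, and 0 without a filter (160 unadjusted), with median-of-ratios scaling (583), with quantile normalization (642), centred on the median gene (525) or with only those groups (85); leaving out 1 library gave 0 to 11064. For exosome-treated against TP it called 8, but 22 with the block, 1 with median-of-ratios scaling, 1 with only those groups, and 0 without a filter (315 unadjusted), without digestive enzymes (410), with quantile normalization (983) or centred (1305); leaving out 1 library gave 0 to 9893. For TP+hucMSC-Exs against Control it called 24, but 12 with a pseudocount of 1, 3 without digestive enzymes, 1 with median-of-ratios scaling, 6056 with only those groups, and 0 without a filter (368 unadjusted), with quantile normalization (1100) or centred (1372); leaving out 1 library gave 1 to 6135.

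Signs turned mainly where exosome-treated glands were set against TP and 1 library was left out. The log2 differences of class sums then ran from -4.92 to 1.05 (fibrillar), -3.96 to 2.00 (basement membrane) and -4.00 to 1.19 (other). Those of single genes ran from -4.87 to 1.39 (Col1a1), -5.02 to 0.72 (Col3a1), -4.13 to 1.86 (Col4a1), -2.16 to 2.43 (Col18a1), -4.02 to 1.24 (Col6a1) and -3.87 to 0.77 (Col14a1), the lower end without TP replicate 1 and the upper without TP replicate 2. The ratio Col1a1 over Col1a2 ran from -0.287 to 0.029, and Col4a1 over Col4a2 against Control from -0.062 to 0.148. Col14a1 ran from -0.56 to 4.08 for TP against Control. Between exosome-treated and Control glands it ran from -0.39 to 0.81, and was -0.82 without digestive enzymes, -0.95 with median-of-ratios scaling, -1.01 with quantile normalization and -1.01 centred on the median gene, beside 0.21. The cause of these changes was not tested.

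The labels give the groups the same replicate numbers without saying that they pair rats. Deviations of same-numbered libraries correlated at 0.279 for TP and Control, 0.135 for exosome-treated and TP, and 0.0804 for exosome-treated and Control libraries; with 2 pairs the block moved the counts as given and called 0 collagens. With 2 rats a group and no counts, neither counting error nor small differences could be resolved, and p-values rest on a variance that the TP libraries dominate.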

Other observations

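Some collagens and their partners differed in ways that the class sums do not show. These genes were picked after their values were seen, and no test was made. Col12a1 over Col14a1, both chains of the fibril surface, was 0.849 and 1.54 in TP+hucMSC-Exs libraries, 0.441 and 1.03 in TP libraries, and 0.112 and 0.370 in Control libraries. All 4 injured glands were above both Control glands. Col15a1 over Col18a1, the close relatives of the basement membrane zone, was 0.534 and 0.557 in TP+hucMSC-Exs libraries, 1.18 and 3.30 in TP libraries, and 0.937 and 0.863 in Control libraries. The 3 groups did not overlap on this ratio. Col5a1 over Col5a2 was 1.45 and 1.57 in TP+hucMSC-Exs libraries, 0.984 and 1.24 in TP libraries, and 1.12 and 0.872 in Control libraries, so both exosome-treated glands lay above the other 4.

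Among the basement membrane partners, Lamb3, a laminin beta chain of epithelial basement membranes, was at 8.36 and 13.9 TPM in TP+hucMSC-Exs libraries, 0.09 and 0.79 TPM in TP libraries, and 0.05 and 0.22 TPM in Control libraries. Both exosome-treated glands were above both TP glands, an order that 5.09% of tested genes had. The simple-epithelium keratin Krt19 was at 32.4 and 35.3 TPM in the same TP+hucMSC-Exs libraries, 1.06 and 4.68 TPM in TP libraries, and 1.46 and 2.23 TPM in Control libraries. Both epithelial genes were thus higher in exosome-treated glands than in TP replicate 2, where most collagens were highest.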
